A study of Rattus norvegicus with 28 samples.

Results

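The terminal ileum of rat pups reared on formula with repeated hypoxia was compared between day 4 and day 1 of life. The arrays are those titled as formula-fed with hypoxia on day 4 (3 arrays) and on day 1 (3 arrays), 6 of the 28 arrays of the series, and all 8740 probe sets that are not controls were considered. All 6 pups were formula-fed and exposed to hypoxia 3 times a day, so neither treatment can be told apart from the other or, within this regimen, from age. The other arrays are the same regimen on days 2 and 3 (3 each), breast-fed pups on days 1 to 4 (3 each) and unfed newborns (4). Per the labels, each array measured total RNA from the terminal ileum of 1 pup, with the tissue kept in RNAlater. The sources used here give no strain, sex or litter, and p-values cover the spread between these pups only.

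Formula feeding with hypoxia is a standard model of necrotizing enterocolitis, an inflammatory necrosis of the immature bowel that in rats strikes mainly the distal ileum. In the first days of life the suckling ileum takes up milk macromolecules by endocytosis, builds its villus epithelium and mucus layer, and thickens its muscle coat. Breast milk supplies growth factors, antibodies and fat that formula does not match, and hypoxia adds intermittent shortage of oxygen to the mucosa.

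The ileal markers Fabp2, Fabp6 and Apoa4 were strong on all 6 arrays. The signal (quantile-normalised intensity) ranged from 4506 to 7575 for Fabp2, the intestinal fatty acid binding protein, and from 744 to 1743 for Fabp6, the ileal bile acid binding protein. Apoa4, an apolipoprotein of enterocytes, ranged from 1599 to 5642, but the ileal bile acid transporter Slc10a2 gave only 18.2 to 78.8. Of the stomach genes, Atp4a gave 40.2 to 119 and Cblif 22.1 to 103 on the probe sets that passed the filter, while Atp4b and Pgc had none above it and gave at most 8.42 and 13.9. Day 4 replicate 1 stood apart from the other day 4 arrays: its median correlation with the day 1 arrays was 0.842, against 0.902 and 0.904. Day 1 replicate 2 had an actin 3'/5' ratio of 4.17 (the other 5 arrays lay between 1.26 and 1.55) and a GAPDH ratio of 1.96 (the others 1.13 to 1.38), ratios that rise when RNA is degraded. Day 4 replicate 3 was registered in a later accession run than the other 5.

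Between day 1 and day 4, 427 of the 3185 genes tested (13.4%) changed, 211 upward (6.62%) and 216 downward (6.78%). A gene was called when the limma adjusted p was under 0.05, and changes are on the log2(signal + 8) scale. Of the called genes, 310 changed more than 2-fold, 159 of them upward. Scaling moved the split between directions: lower genes were 50.6% of calls here, 40.9% of 308 calls under the deposited scaling and 63.2% of 334 calls when arrays were set to a common median, which shifted the median change of all genes to 0.11 and -0.08. All 427 kept their direction under each scaling that tested them. The count rested heavily on single arrays. Without day 4 replicate 1, 150 genes were called, 147 of them among the 427, and without day 1 replicate 1 the number was 275. Without day 1 replicate 2 it was 309, and without both day 4 replicate 1 and day 1 replicate 2 it was 80. With 1 test per probe set, 554 of 5244 probe sets were called (10.6%), 271 higher (5.17%) and 283 lower (5.4%). Arrays of day 4 and day 1 did not overlap for 1056 genes (33.2% of those tested), and for 413 of the 427 called.

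The change took place mainly after day 2. Of the 211 higher genes, 195 (92.4%) also had a higher mean on day 3 than on day 2, against 48.4% of all genes tested, although no day 1 or day 4 array enters that difference. Of the 216 lower genes, 203 (94%) had a lower mean on day 3 than on day 2, against 51.6% of all. Their median step from day 2 to day 3 was 0.61 for the higher and -0.63 for the lower genes, on the log2 scale, and -0.02 over all genes. Across all genes the change from day 1 to day 4 and the step from day 2 to day 3 correlated at r = 0.627, a description over genes, which are not independent replicates.

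**Figure D1:**
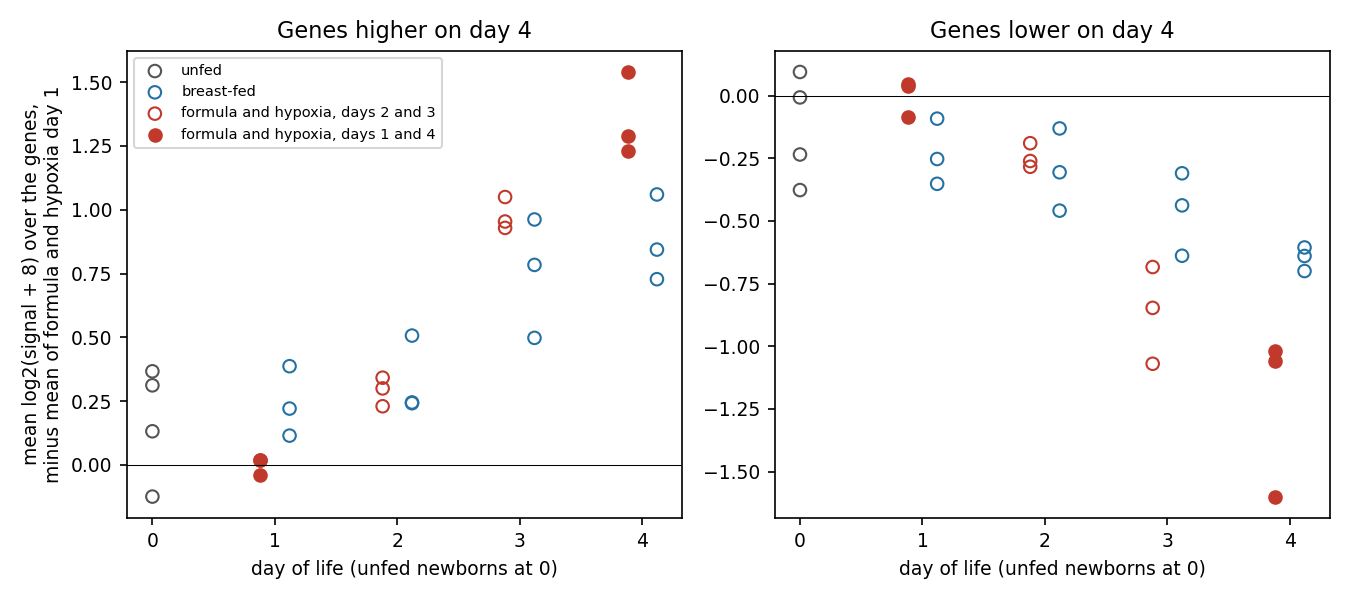
Mean log2(signal + 8) over the 211 genes higher (left) and the 216 genes lower (right) on day 4, relative to the mean of the formula and hypoxia day 1 arrays, against day of life, 1 point per array. The filled points chose the genes, so their separation is not a result; the open points show days 2 and 3 of the same regimen, where the day 2 arrays lie at 0.23 to 0.342 and the day 3 arrays at 0.929 to 1.05 in the left panel, with breast-fed pups and unfed newborns for comparison.

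Genes of the mucus barrier were among the largest rises. Muc2, the gel-forming mucin secreted by goblet cells, gave signals of 153, 248 and 243 on day 1 and 2660, 1100 and 792 on day 4. Every day 4 pup was above every day 1 pup, and the rise was 6.11-fold (95% interval 3.02 to 12.4, adjusted p = 0.00186). On day 2 Muc2 was still at 117 to 356, and on day 3 it was at 778 to 1370. Muc13, a mucin anchored in the apical membrane, went from 402, 362 and 909 to 3460, 2410 and 2890, again without overlap. That was a rise of 5.58-fold (2.56 to 12.2, adjusted p = 0.00458), and a second Muc13 probe set rose by 1.93 on the log2 scale. Clca4, a member of the family of calcium-activated chloride channel regulators, went from 553, 1350 and 1250 to 5740, 4530 and 4470 (adjusted p = 0.0113). Klf4, a transcription factor of goblet and other differentiated epithelial cells, was at 119, 109 and 75 on day 1 and 518, 297 and 540 on day 4, with no overlap. It rose 4.14-fold (2.76 to 6.21, adjusted p = 0.000241).

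The goblet cell genes did not move as a group. Of 10 goblet and Paneth cell markers tested, 3 were called (30% beside 13.4% of all genes), all higher (Muc2, Muc13 and Klf4). The median change of the list was 0.04 (-0.10 at a common median) beside -0.00 over all genes. Tff3, the trefoil peptide secreted with Muc2, was at 3930, 3340 and 2730 on day 1 and 3280, 2870 and 3280 on day 4, overlapping ranges with a change of -0.07. Other Muc2 probe sets did not follow the one used (2.61): one above the filter changed by -0.45 and one below it by 0.49. In this bulk tissue, more cells of a type and more RNA per cell cannot be told apart. Muc2 and Klf4 were called in every alternative, whereas Clca4 was not called without day 4 replicate 1 (adjusted p = 0.0590) or without day 1 replicate 1.

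**Figure D2:**
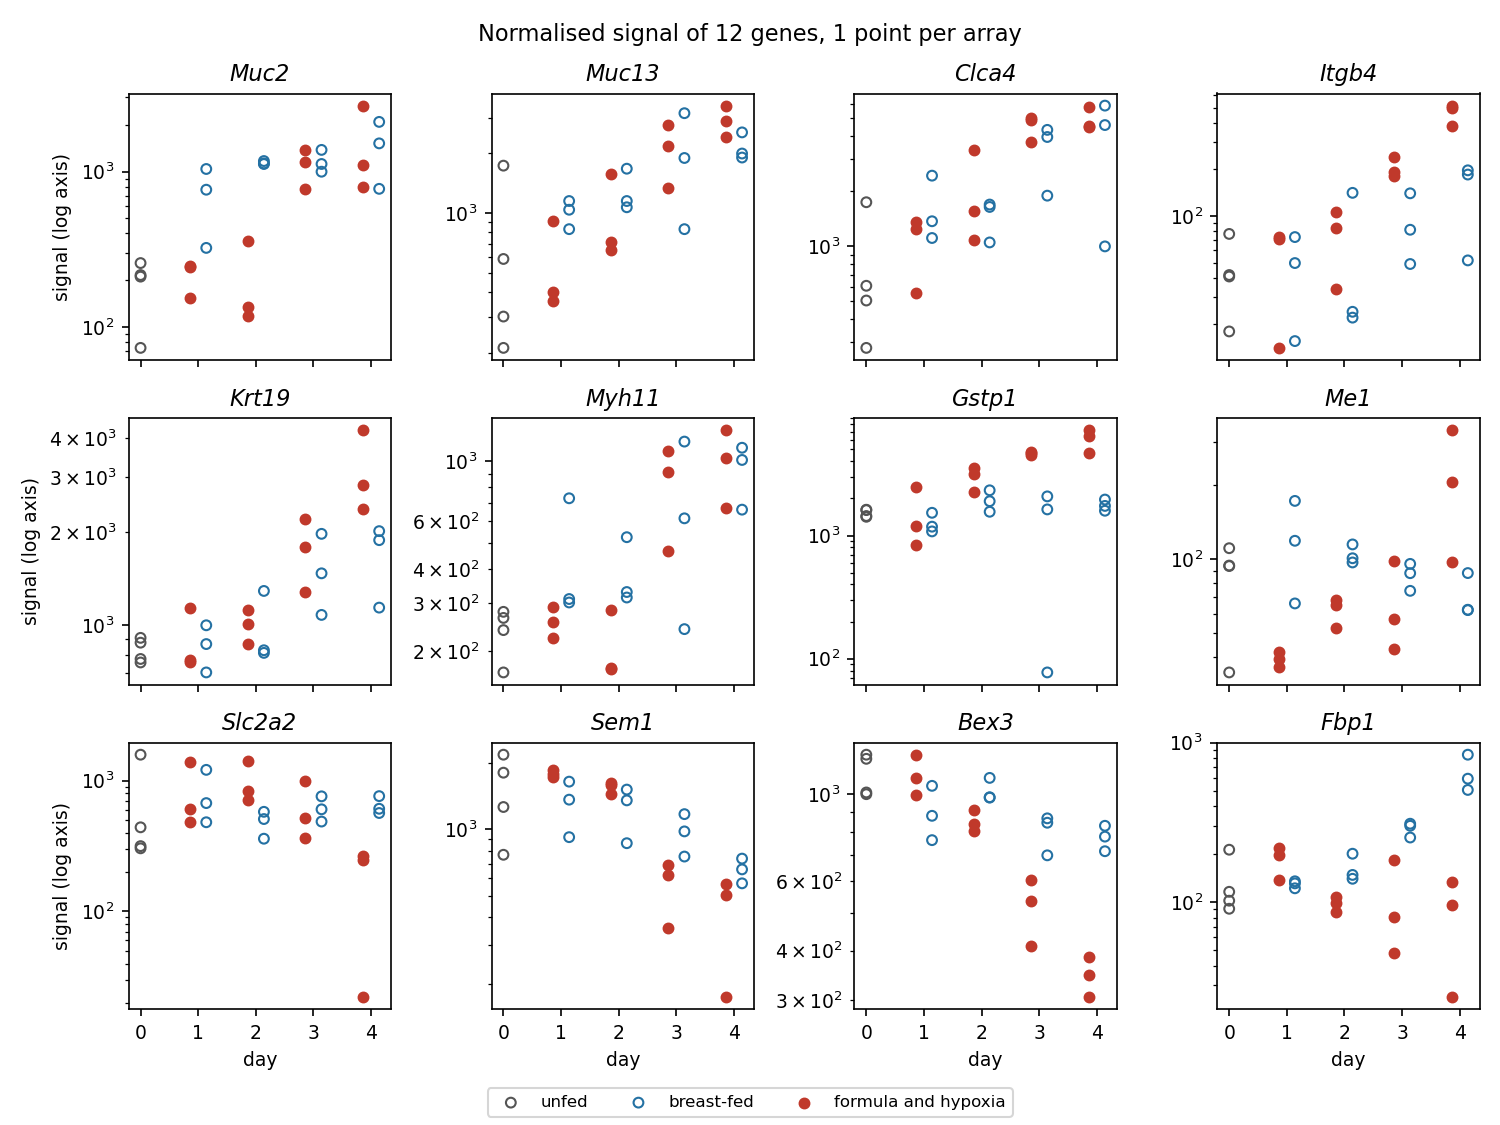
Signal (quantile-normalised intensity, log axis) of 12 genes against day of life, 1 point per array, for unfed newborns, breast-fed pups and pups on formula and hypoxia. Muc2, Muc13, Clca4, Itgb4, Krt19 and Myh11 climb between days 2 and 4 of formula and hypoxia, Bex3 and Sem1 decline, and Fbp1 parts from the breast-fed pups, which reach 505 to 840 on day 4.

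Of 20 genes in a list of epithelial junctions and adhesion that also holds keratins, 4 rose (20% beside 13.4% of all genes). They were Itgb4 and the keratins Krt19, Krt20 and Krt8. Itgb4, the integrin subunit of hemidesmosomes that holds epithelial cells to the basement membrane, was at 73.6, 71 and 14.1 on day 1 and 515, 495 and 380 on day 4. Both groups lay far apart, with a rise of 8.95-fold (3.73 to 21.5, adjusted p = 0.00221). Without day 1 replicate 3, the lowest, the Itgb4 change was 2.54 on the log2 scale against 3.16. Krt19, a keratin of simple epithelia, went from 1140, 773 and 759 to 4250, 2840 and 2360, a 3.47-fold rise (2.30 to 5.22, adjusted p = 0.000786), and its second probe set changed by 2.20. Both genes were called in every alternative. The other 16 did not pass the test, and 2 of the 20 were called without day 4 replicate 1 or at a common median. The median of the list was 0.59 (0.27 at a common median), and 11 of the 20 had all day 4 arrays above all day 1 arrays, against 16% of all genes. Krt20, a keratin of mature villus cells, rose 2.03-fold (adjusted p = 0.0177). Krt8 rose 1.88-fold (adjusted p = 0.0237), but its change of 0.91 was 0.37 with arrays at a common median (adjusted p = 0.623). Neither Krt8 nor Krt20 was called without day 4 replicate 1 (adjusted p = 0.120 and 0.0977).

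Further genes that couple membranes to the actin cytoskeleton were among the 15 largest rises. Tln1, talin, which links integrins to actin, went from 16.2, 12.6 and 8.04 to 128, 118 and 72.6. Sptan1, the alpha chain of non-erythroid spectrin, went from 14.4, 20 and 26.9 to 133, 85.5 and 135. Myl12b, a regulatory light chain of non-muscle myosin, went from 555, 355 and 406 to 2430, 1840 and 2080. None of these overlapped between days. The rises were 5.56-fold for Tln1, 4.41-fold for Sptan1 and 4.81-fold for Myl12b (adjusted p = 0.00527, 0.00951 and 0.00117). Another Myl12b probe set changed by 0.68.

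The very largest rise was that of Ly6al, a member of the Ly6 family of lipid-anchored surface proteins. Ly6al was at 438, 430 and 259 on day 1, and at 6610, 2140 and 3260 on day 4, a rise of 9.64-fold (3.31 to 28.1, adjusted p = 0.00578). Its second probe set changed by 3.02, and every day 4 pup was above every day 1 pup. Without day 4 replicate 1, the highest of the 3, Ly6al fell just short of the threshold (adjusted p = 0.0503). Pmepa1, a membrane protein that restrains TGF-beta signalling, rose 4.55-fold, from 132, 57.6 and 68.8 to 461, 398 and 340 (adjusted p = 0.00221). Map3k12, a stress-activated kinase upstream of JNK, rose 6.84-fold, from 15.9, 14 and 17.1 to 174, 72.8 and 279 (adjusted p = 0.00226). It was not tested with a pseudocount of 2 or at a common median.

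Of 16 smooth muscle markers tested, 4 rose (25% beside 13.4% of all genes), 2 of them also at a common median, and the median of the list was 0.72. All day 4 arrays lay above all day 1 arrays for 6 of the 16 (16% of all genes) and below them for 2 (17.1% of all). The summed signal of the 16 ran from 9951 to 13470 on day 1 and from 15690 to 22150 on day 4, and none was near 0. Myh11, smooth muscle myosin heavy chain, went from 223, 255 and 291 to 1300, 1030 and 672. Every day 4 pup exceeded every day 1 pup, at 3.70-fold (1.98 to 6.91, adjusted p = 0.00640). Des, desmin, rose 4.12-fold, from 220, 34.5 and 173 to 611, 530 and 360 (adjusted p = 0.00518); without day 1 replicate 2, the array with the high 3'/5' ratios, its change was 1.29 on the log2 scale against 2.04. Actg2, the enteric smooth muscle actin, rose 2.40-fold (adjusted p = 0.00566) and Acta2, the vascular form, 2.97-fold (adjusted p = 0.0321). Actg2 was not called under the deposited scaling or at a common median, and Acta2 was called under the deposited scaling but not at a common median, with accession run as a term (adjusted p = 0.0660), or without any single array but day 4 replicate 3. Whether a different share of muscle in the samples moved with other gene groups was not tested.

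Matrix genes were called about as often as genes at large, and in both directions. Of 42 fibroblast and matrix genes, 6 were called (14.3% beside 13.4% of all genes), 4 higher and 2 lower, with a median of 0.25. Serpinh1, the collagen chaperone, went from 79.3, 42.8 and 51.6 to 306, 149 and 223, and was called in every alternative (3.50-fold, adjusted p = 0.000786). Eln, elastin, rose 2.39-fold (adjusted p = 0.0101) and Pdgfra, a receptor of subepithelial mesenchymal cells, 2.57-fold (adjusted p = 0.00763). Spp1, osteopontin, fell from 97.7, 87.4 and 70.7 to 13.3, 12.5 and 34.2, a fall of 3.51-fold (1.91 to 6.44, adjusted p = 0.00721). Lum, the collagen-binding proteoglycan lumican, fell 2.66-fold (adjusted p = 0.0358). Eln, Pdgfra and Lum were not called without day 4 replicate 1 (adjusted p = 0.0836, 0.0633 and 0.176).

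Immediate early genes, which encode transcription factors and phosphatases switched on within minutes of a stimulus, were called more often than genes at large. Of 28 tested, 8 were called (28.6% beside 13.4% of all genes), 7 higher and 1 lower, and the median of the list was 0.34. Jun was at 27, 4.62 and 34.6 on day 1 and 149, 298 and 220 on day 4. No day 1 array reached a day 4 array, and Jun rose 8.35-fold (3.54 to 19.7, adjusted p = 0.00221). Its 3 other probe sets changed by 0.17, 1.47 and 1.54. Myc, a driver of cell growth, went from 29.7, 24.4 and 31.6 to 105, 72.1 and 78.6, or 2.53-fold (adjusted p = 0.00318). Cebpb, a stress and differentiation factor, rose 3.18-fold, from 161, 205 and 102 to 493, 466 and 532 (adjusted p = 0.00221). Dusp1, a phosphatase that turns off stress kinases, rose 2.90-fold (adjusted p = 0.0200). The 1 member that fell was Cebpd, a related factor chosen here after its values were seen (2.01-fold lower, adjusted p = 0.0247). Jun, Klf4 and Cebpb were called in every alternative, and Dusp1 was not called without day 4 replicate 1 (adjusted p = 0.103) or without 3 others of the 6 arrays.

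Some enzymes of glutathione and NADPH supply rose, though the antioxidant list as a whole did not stand above the background. Gclc, the catalytic chain of the limiting step of glutathione production, was at 22.5, 4.92 and 5.89 on day 1 and 71.2, 67.1 and 75.6 on day 4. Its ranges were wholly separate, at 4.50-fold (2.37 to 8.54, adjusted p = 0.00287). Gstp1, the pi-class glutathione transferase, rose from 2490, 1200 and 842 to 7180, 4660 and 6480, or 4.40-fold (1.71 to 11.3, adjusted p = 0.0326). A second Gstp1 probe set changed by 2.12. Me1, the cytosolic malic enzyme that makes NADPH, went from 41.9, 36.3 and 39.4 to 97.4, 207 and 336, or 4.20-fold (2.45 to 7.22, adjusted p = 0.00155). It was called in every alternative, and its other probe sets changed by 1.59, 1.52 and 0.86 above the filter and by -0.42 below it. Gpx3, a secreted glutathione peroxidase, rose 2.22-fold (adjusted p = 0.0353). Of all 34 glutathione and antioxidant genes tested, these 3 (Gclc, Gstp1 and Gpx3) were called, 8.82%, under the background share, and the median change was 0.06 (-0.13 at a common median). Gstp1 and Gpx3 were not called without day 4 replicate 1 (adjusted p = 0.127 and 0.0692), under the deposited scaling or at a common median. Hmox1, the stress-induced haem oxygenase, was at 585, 595 and 778 on day 1 and 957, 3230 and 1670 on day 4, and did not pass the test (change 1.41, adjusted p = 0.121).

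Gclc, Gstp1 and Me1 are textbook targets of the antioxidant-responsive factor Nrf2, so the 250 bases upstream of their RefSeq start sites (assembly GRCr8) were searched on both strands for the core of its binding element, TGACNNNGC. All 3 genes had a promoter sequence, and they were chosen after their values were seen. Of the 34 glutathione and antioxidant genes tested, 3 were called higher, none lower and 31 not called. Among those not called, Nqo1 changed by 1.02, Txnrd1 by 0.37, Gpx2 by 0.18, Gclm by -0.01 and Prdx1 by -0.25. The core was present 61 bases before the Gstp1 start and 167 bases before the Me1 start and absent from this window of Gclc. It occurs in 10.1% of the 33469 promoters of the same length. The sequences are shown 5' to 3' on the gene's strand, with the match in capitals, to let the 2 sites be compared. Gstp1 is chr1:210769706-210769955 (minus strand), Me1 is chr8:96540245-96540494 (minus strand) and Gclc is chr8:87510226-87510475 (plus strand).
Gstp1: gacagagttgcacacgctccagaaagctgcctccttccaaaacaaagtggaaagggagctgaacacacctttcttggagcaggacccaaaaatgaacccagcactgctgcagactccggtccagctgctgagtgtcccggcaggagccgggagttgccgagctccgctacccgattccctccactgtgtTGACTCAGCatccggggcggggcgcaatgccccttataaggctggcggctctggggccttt
Me1: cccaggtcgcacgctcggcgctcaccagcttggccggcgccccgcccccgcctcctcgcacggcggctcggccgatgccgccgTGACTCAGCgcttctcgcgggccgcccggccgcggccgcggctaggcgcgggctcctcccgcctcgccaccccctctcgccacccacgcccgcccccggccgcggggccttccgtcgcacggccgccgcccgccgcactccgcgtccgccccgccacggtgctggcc
Gclc: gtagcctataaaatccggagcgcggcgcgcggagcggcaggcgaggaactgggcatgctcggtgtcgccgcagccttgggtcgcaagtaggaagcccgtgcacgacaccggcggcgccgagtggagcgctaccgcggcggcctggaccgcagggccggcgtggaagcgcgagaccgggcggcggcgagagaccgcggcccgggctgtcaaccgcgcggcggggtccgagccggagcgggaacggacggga
A pair of other searches of the same kind, for exact matches only, gave fewer matches. The CArG box, bound by serum response factor, was searched as CCWWWWWWGG, where W is A or T. An exact match was in 0 of 3 smooth muscle promoters (Acta2, Actg2 and Des, beside 1.5% of all). Near matches, such as CCCTATATGG in the Acta2 window, which is 1 letter off, were not counted. The hypoxia element core ACGTG was in 1 of 4 glycolysis promoters (Pgam1, among Pfkp, Aldoa, Pgam1 and Eno1, beside 16.6% of all). The antioxidant match read TGACTCAGC in both Gstp1 and Me1. A match in these letters is a description of the sequence and shows neither binding nor a cause of the rise, and the lack of one in the Gclc window says nothing about sites elsewhere.

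Among genes of glycolysis and the hypoxia response, 4 enzymes of glycolysis rose, and the other members tested did not pass. Pfkp, the platelet-type phosphofructokinase, was at 68.5, 65.7 and 51.1 on day 1 and 345, 207 and 244 on day 4, a separation of 3.86-fold (2.40 to 6.20, adjusted p = 0.00109). Aldoa, aldolase A, rose 4.33-fold, from 463, 93 and 421 to 1280, 1180 and 1080 (adjusted p = 0.00539); without day 1 replicate 2, the array with the high 3'/5' ratios, the change was 1.40 on the log2 scale against 2.12. Pgam1 and Eno1, which act further down the pathway, rose 2.22-fold and 2.08-fold (adjusted p = 0.00318 and 0.00576). Other Pgam1 and Eno1 probe sets changed alike, by 1.39 and 1.46 for Pgam1 and 1.07 for Eno1. These were the 4 called of 26 genes of glycolysis and the hypoxia response (15.4% beside 13.4% of all), with none lower and a median of 0.28. Vegfa, the hypoxia-induced vascular growth factor, was at 59.4, 105 and 52.5 on day 1 and 68.6, 140 and 86.9 on day 4, with overlapping values and a change of 0.41 (adjusted p = 0.531). Other Vegfa probe sets changed by -0.35 above the filter and by -0.36 and -0.04 below it. All 4 enzymes were also called without any single one of the 6 arrays, but Pgam1 and Eno1 were not called at a common median.

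Among chaperones, Hspd1, the mitochondrial Hsp60, rose 2.33-fold (adjusted p = 0.0115) and Hspa4, a cytosolic co-chaperone of the Hsp110 family, 3.20-fold (adjusted p = 0.0231). These were 2 of 16 tested (12.5% beside 13.4% of all genes). Calr, calreticulin of the endoplasmic reticulum, rose 1.96-fold (adjusted p = 0.0375), the 1 called of 15 (6.67%), and 2 other Calr probe sets changed by 0.25 and 0.09. None of Hspd1, Hspa4 and Calr was called without day 4 replicate 1 (adjusted p = 0.105, 0.0844 and 0.127), and the Hspa4 change of 1.68 was 1.001 without day 1 replicate 1.

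Genes of drug metabolism and bile acid handling were called no more often than genes at large, with a few large single changes. Cyp3a9, a steroid- and drug-metabolising cytochrome P450, was at 54.7, 262 and 284 on day 1 and 496, 1100 and 976 on day 4. Its groups did not overlap, and the rise was 4.81-fold (2.19 to 10.5, adjusted p = 0.00874). Aldh2, the mitochondrial aldehyde dehydrogenase, went from 58.7, 34.8 and 42.3 to 134, 206 and 193 (3.49-fold, adjusted p = 0.000786), whereas Aldh1a1, which makes retinoic acid, fell 2.56-fold (adjusted p = 0.0114). These were the 3 called of 31 drug-metabolism genes (9.68% beside 13.4% of all). Abcc2, an apical export pump for conjugates, rose 3.38-fold, from 89.6, 220 and 262 to 563, 746 and 533 (adjusted p = 0.0193), the 1 called of 9 bile acid genes (11.1%). Slc10a2, the ileal bile acid uptake transporter, gave 33.2, 18.2 and 61.3 on day 1 and 78.8, 56.2 and 50 on day 4, with overlap and a change of 0.70 (adjusted p = 0.213). Fabp6 changed by 0.47 (adjusted p = 0.411). Psat1, an enzyme of serine synthesis, rose 4.42-fold (adjusted p = 0.0282), and was not called without day 4 replicate 1 (adjusted p = 0.167) or without 3 others of the 6 arrays. Abcc2 and Aldh1a1 also missed the threshold without day 4 replicate 1 (adjusted p = 0.0623 and 0.0550), and Cyp3a9 did so without day 1 replicate 1 (change 1.54 against 2.26, adjusted p = 0.0725).

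Genes listed under brush border digestion and uptake leaned upward, with 1 large exception, a sugar transporter. Of 17 tested, 10 had all day 4 arrays above all day 1 arrays (16% of all genes did), and the median change was 0.88. In all, 2 were called higher and 1 lower (17.6% beside 13.4% of all genes). Mep1b, the meprin beta protease, went from 234, 756 and 676 to 1080, 1060 and 1570 (2.44-fold, adjusted p = 0.0248). Slc3a1, a subunit of the basic amino acid and cystine transporter, rose 2.40-fold (adjusted p = 0.0352) although its groups overlapped. Lct, lactase, which splits milk sugar, was at 247, 275 and 495 on day 1 and 395, 514 and 669 on day 4, a change of 0.66 that did not pass the test (adjusted p = 0.138). Slc2a2, the GLUT2 glucose and fructose transporter, fell from 480, 609 and 1380 to 22.2, 264 and 249. That was a fall of 5.83-fold (2.32 to 14.6, adjusted p = 0.0115), with no overlap. Day 4 replicate 1 was far the lowest, and without it the Slc2a2 change was -1.50 (adjusted p = 0.125). Mep1b was not called without day 4 replicate 1 (adjusted p = 0.0656) or at either other scaling, and Slc3a1 (change 1.26) was called, at 1.86, on leaving out day 4 replicate 1 but none of the other 5 arrays. With accession run as a term neither was called (adjusted p = 0.0514 and 0.0647). At a common median 0 of the brush border genes were called higher, and the list median was 0.61.

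Among genes of gluconeogenesis and fructose handling, 2 of 13 were called (15.4% beside 13.4% of all), both lower, and the median was -0.08 (0.06 under the deposited scaling). Fbp1, fructose-1,6-bisphosphatase, was at 218, 197 and 137 on day 1 and 25.4, 96 and 134 on day 4 (2.39-fold lower, adjusted p = 0.0452). Slc37a4, the glucose-6-phosphate transporter, fell 2.12-fold, from 1060, 829 and 1360 to 355, 490 and 702 (adjusted p = 0.00904). Pck1, the enzyme that commits carbon to gluconeogenesis, was at 63.1, 9.97 and 90.6 on day 1 and 56.5, 233 and 569 on day 4, with a change of 2.05 (adjusted p = 0.120). Without day 4 replicate 1, neither Fbp1 (change -0.63, adjusted p = 0.372) nor Slc37a4 (adjusted p = 0.0836) was called.

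Fat handling split. Of 20 genes listed under fat absorption and lipoproteins, 7 were called (35% beside 13.4% of all), 3 higher and 4 lower. Dbi, the acyl-CoA binding protein, fell from 1360, 1300 and 916 to 219, 345 and 508, a fall of 3.43-fold (2.06 to 5.70, adjusted p = 0.00231). Acat2, a cytosolic acetyl-CoA acetyltransferase, fell 2.66-fold, from 1120, 799 and 1510 to 362, 372 and 518, and was called in every alternative (adjusted p = 0.00165). It counts among the 4 lower genes of the list, although it is not itself a gene of fat absorption or lipoproteins. Acsl5, an acyl-CoA synthetase of enterocytes, fell 2.27-fold (adjusted p = 0.0239), while Acsl3, another of the family, rose 2.63-fold (adjusted p = 0.0187). Apoa1, the main apolipoprotein of HDL, rose 1.93-fold (adjusted p = 0.00709), but was not called under the deposited scaling, and its change of 0.95 was 0.29 at a common median (adjusted p = 0.707). Apoa4 changed by 0.03 and Fabp2 by 0.34, neither called. Fasn, fatty acid synthase, rose 2.39-fold (adjusted p = 0.0122) with Me1, the 2 called of 7 genes of fatty acid synthesis (median 0.79), although another Fasn probe set changed by -0.37. Idi1, an enzyme of cholesterol synthesis, fell 2.70-fold (adjusted p = 0.0324), the 1 called of 13 in that list (median -0.45). Acsl5, Acsl3, Fasn and Idi1 were not called without day 4 replicate 1 (adjusted p = 0.140, 0.107, 0.0828 and 0.162).

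Mitochondrial and proteasome subunits sat on the lower side by their medians. Of 56 genes of oxidative phosphorylation, 4 were called (7.14%), all lower, near the 6.78% of all genes called lower. For 27 of the 56, every day 4 array was below every day 1 array, against 17.1% of all genes. The median change of the list was -0.49, and it was -0.64 under the deposited scaling and -0.86 at a common median. Uqcr11, a subunit of complex III, went from 2810, 2190 and 2020 to 503, 1280 and 905 (2.75-fold lower, adjusted p = 0.00231), and its other probe set changed by -0.43. Atp5pf, a subunit of ATP synthase, fell 2.51-fold, and Ndufb11 and Ndufb2 of complex I fell 2.09-fold and 2.24-fold (adjusted p = 0.00991, 0.0159 and 0.0366). In breast-fed pups the median of the list was -0.53. The 24 proteasome genes had a median of -0.46, with 4 lower and 1 higher called (20.8% beside 13.4% of all genes). Psma4 and Psmb1 of the core particle fell 1.89-fold and 1.86-fold (adjusted p = 0.0159 and 0.0195), and Psmd1 of the regulatory particle rose 1.87-fold (adjusted p = 0.0282). Other Psmd1 probe sets did not follow, changing by 0.50 and -0.04 above the filter and by 0.03 below it. Of 40 cytosolic ribosomal protein genes, 2 (Rpl6 and Rps15) were called, both lower (5% beside 6.78% of all genes called lower). The median of that list was -0.29, and other Rps15 sets changed by -0.94 and 0.30. Without day 4 replicate 1, Atp5pf, Ndufb11, Ndufb2, Psma4, Psmd1, Rpl6 and Rps15 were not called (adjusted p from 0.0836 to 0.255), and 1 gene of oxidative phosphorylation was. Psmb1 was not called without day 1 replicate 1, day 1 replicate 2 or day 4 replicate 3.

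Among the 15 largest falls, Anapc15, a subunit of the anaphase-promoting complex, was the largest at 10.5-fold (4.18 to 26.3, adjusted p = 0.00191). It was at 213, 172 and 86.2 on day 1 and 3.84, 7.42 and 9.77 on day 4. Its size depends on the pseudocount, being -4.10 on the log2 scale with 2 and -2.21 with 32, against -3.39 with 8. Anapc16, of the same complex, fell 3.76-fold, from 266, 186 and 202 to 32.8, 61.9 and 65.7 (adjusted p = 0.000786). Sem1, a very small proteasome component, went from 1780, 1850 and 1720 to 175, 568 and 503, or 4.75-fold lower (2.76 to 8.17, adjusted p = 0.00108). The gene annotated as mrpl11, a mitochondrial ribosomal protein, fell 4.43-fold, from 767, 776 and 428 to 118, 152 and 143 (adjusted p = 0.000768). None of the 4 overlapped between days, and all 4 were called in every alternative that tested them. Gchfr, which restrains tetrahydrobiopterin synthesis, fell 4.37-fold, and Mxd4, an antagonist of Myc at its partner Max, 4.91-fold (adjusted p = 0.00155 and 0.00165). Mxd4 was at 244, 220 and 134 on day 1 and 8.87, 56.5 and 55.6 on day 4, and without day 4 replicate 1 its change was -1.65 against -2.30. Washc3, of the endosomal WASH complex, and Nudt1, which clears oxidised nucleotides, fell 4.03-fold and 3.87-fold but were not called without day 4 replicate 1 (adjusted p = 0.0544 and 0.0978), when the Nudt1 change was -1.23 against -1.95. The genes that fell were shorter in the genome, with a median span of 13498.5 bases in GRCr8, against 27738 for those that rose and 20328 for all tested. Span and change had a rank correlation of 0.17 across genes, and 0.13 for the change in breast-fed pups. Its part in these results was not tested.

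**Figure D3:**
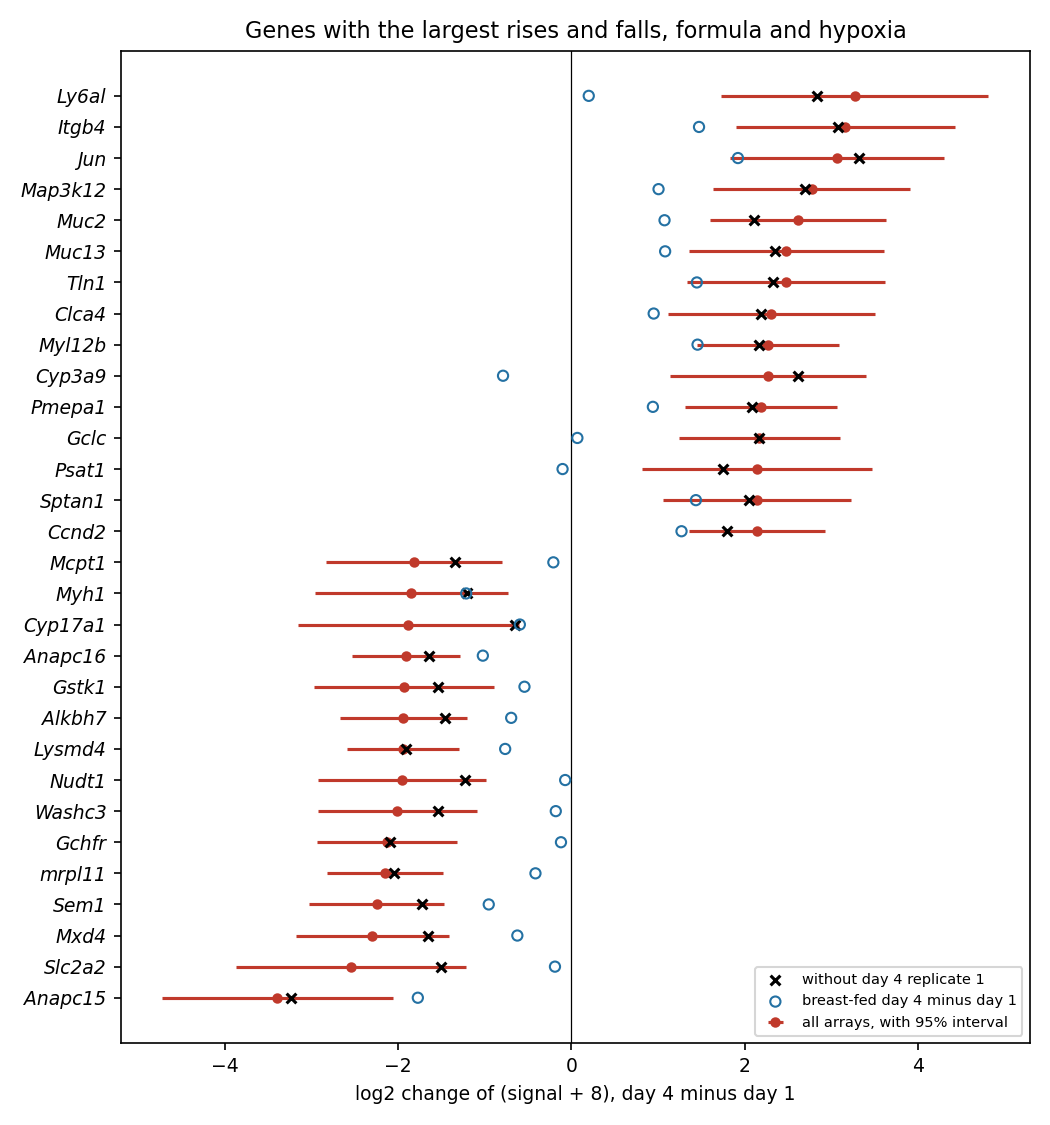
Log2 change in (signal + 8) from day 1 to day 4 for the 15 largest rises and 15 largest falls among called genes: filled points with 95% intervals for all arrays, crosses without day 4 replicate 1, open circles for breast-fed pups. Most crosses sit beside their point, but Slc2a2 moves from -2.54 to -1.50 and Cyp17a1 from -1.88 to -0.65.

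Further falls were spread over unrelated functions. Lysmd4, a membrane protein with a LysM domain, went from 255, 321 and 121 to 47.6, 40.5 and 64.8, and Alkbh7, a mitochondrial dioxygenase, from 421, 360 and 301 to 41.2, 136 and 115. Both were called in every alternative, at 3.84-fold and 3.83-fold lower (adjusted p = 0.000786 and 0.00155). Diablo, a mitochondrial protein that promotes apoptosis, was the 1 called of 12 apoptosis genes, going from 215, 249 and 211 to 88.6, 116 and 122 (2.01-fold lower, adjusted p = 0.00467). Among 27 genes of fatty acid oxidation, Hadhb, a subunit of the trifunctional protein, fell 1.90-fold and Eci1, an enoyl-CoA isomerase, 2.96-fold, while Ucp2, a mitochondrial carrier, rose 2.65-fold (adjusted p = 0.0253, 0.0332 and 0.0436). Hadhb and Ucp2 did not overlap between days, but Eci1 did, and its other probe sets above the filter changed by 0.27 and -0.80. Cyp17a1, an enzyme of steroid synthesis, was at 267, 161 and 503 on day 1 and 6.07, 143 and 216 on day 4, overlapping ranges with a fall of 3.69-fold (adjusted p = 0.0436). Gstk1, a glutathione transferase of mitochondria and peroxisomes, fell 3.81-fold, from 357, 218 and 357 to 39.8, 58.5 and 163 (adjusted p = 0.0134), but its other probe set changed by -0.24. Cyp17a1, Gstk1, Hadhb, Eci1 and Ucp2 were not called without day 4 replicate 1 (adjusted p = 0.421, 0.105, 0.149, 0.312 and 0.0897). The change was then -0.65 against -1.88 for Cyp17a1 and -0.79 against -1.57 for Eci1.

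Inflammatory genes did not pass the test. Of 21 inflammatory mediators and NF-kB targets, none was called, and the median change was 0.12 (limma, where 885 of all 3185 genes had an unadjusted p under 0.05, among them Il1b at 0.0144). Under the deposited scaling 1 of the 21 was called, higher. Il1b, the proinflammatory cytokine, was at 27.2, 49.8 and 42.5 on day 1 and 84.3, 68.4 and 61.5 on day 4. Its groups did not overlap, with a rise of 1.68-fold on the fitted scale that was not called (adjusted p = 0.0833). Il1b was called in 2 of 19 alternatives. Nos2, the inducible nitric oxide synthase, was at 57.1, 74.8 and 44.6 and then 53.2, 25.5 and 29 (change -0.63, adjusted p = 0.615). Il18, which has been tied to this disease, changed by -0.48 (adjusted p = 0.417), Ptafr, the receptor of platelet-activating factor, by 0.12 and Ccl11, the eosinophil attractant, by -1.10 (adjusted p = 0.158). Another Il18 probe set above the filter changed by -1.18 and was not called either. Ptgs2, Tnf, Il6, Tlr4, Pla2g2a and Egf were on the array but below the filter. None of 23 interferon and antigen presentation genes was called, Stat2 having the smallest p (change -0.72, adjusted p = 0.0711). Stat2 too was called in 2 of 19 alternatives. Reg3g, an antibacterial lectin of enterocytes, rose 3.00-fold, from 13.7, 70.9 and 21.5 to 149, 96.6 and 75 (adjusted p = 0.0158), the 1 called of 13 antimicrobial genes. It was not called without day 4 replicate 1 (adjusted p = 0.105).

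Immune cell lists had few called members, and the mast cell list had the lowest median of them. Lgals3, galectin 3, made by macrophages and by enterocytes, went from 2030, 1480 and 1880 to 6790, 5060 and 4410 (2.99-fold, adjusted p = 0.0155). The macrophage gene Aif1 fell 2.62-fold (adjusted p = 0.0451) and Alox5ap, which supports leukotriene synthesis, 1.85-fold (adjusted p = 0.0448). So 3 of 16 macrophage and granulocyte markers were called (18.8% beside 13.4% of all genes), 1 higher and 2 lower. Mcpt1, a chymase-type mast cell protease, was at 300, 649 and 224 on day 1 and 45, 146 and 124 on day 4, a fall of 3.52-fold (1.74 to 7.14, adjusted p = 0.0171). Cma1, mast cell chymase, fell 1.98-fold (adjusted p = 0.0300), and these were the 2 called of 11 mast cell markers (18.2%), whose median was -0.45. That median was 0.13 without day 1 replicate 2, which held the highest Mcpt1 signal and the high 3'/5' ratios, and Mcpt1 was then not called. Mcpt4 changed by -0.47 (adjusted p = 0.564). None of Lgals3, Aif1, Alox5ap, Mcpt1 and Cma1 was called without day 4 replicate 1 (adjusted p from 0.0897 to 0.327). Klrb1a, a receptor of natural killer cells, was the 1 called of 14 lymphocyte markers (2.12-fold lower, adjusted p = 0.0328), and none of 6 endothelial markers was called.

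Growth and cell cycle genes were called about as often as genes at large. Ccnd2, cyclin D2, went from 135, 221 and 234 to 1410, 574 and 809, or 4.40-fold (2.56 to 7.58, adjusted p = 0.00134), and was called in every alternative. Of 40 cell cycle and replication genes, 5 were called (12.5% beside 13.4% of all), 3 higher (Ccnd2, Rbl2 and Mcm6) and 2 lower (Aurkb and Prim1), with a median of -0.23. Other Mcm6 probe sets changed by 0.09 and 0.71. Of 28 growth factor and receptor genes, 4 were called (14.3%), 3 higher and 1 lower. Areg, an EGF receptor ligand, was at 79.6, 73.9 and 48.7 on day 1 and 277, 222 and 156 on day 4 (2.98-fold, adjusted p = 0.0231), and Erbb2, a partner of that receptor, rose 2.11-fold (adjusted p = 0.0451). H19, the imprinted growth-restraining RNA, fell from 6860, 5380 and 7070 to 990, 4070 and 3070 (2.75-fold, adjusted p = 0.0154). Day 4 replicate 1 was the lowest by far, and without it the H19 change was -0.85 (adjusted p = 0.158). Areg, Erbb2, Rbl2, Mcm6, Aurkb and Prim1 also lost their calls without that array (adjusted p from 0.0833 to 0.147).

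Among hormone, transport and metal genes, Aqp7, a glycerol channel, rose 2.98-fold, from 213, 315 and 150 to 709, 957 and 426, and was called in every alternative (adjusted p = 0.00221). Klf9, a target of glucocorticoid and thyroid hormone, rose 3.27-fold, from 60.6, 41.3 and 56.6 to 243, 187 and 148 (adjusted p = 0.0234), while its other probe set changed by 0.31. Dio1, the thyroid hormone deiodinase, fell 2.78-fold (adjusted p = 0.0268). Slc40a1, the iron exporter ferroportin, went from 145, 167 and 165 to 778, 377 and 801, or 3.75-fold (2.13 to 6.60, adjusted p = 0.00287). Aco1, which as an iron-regulatory protein senses iron, rose 2.69-fold, from 79.8, 113 and 140 to between 298 and 314 on the day 4 arrays (adjusted p = 0.00768). The red cell genes Slc4a1 and Alas2 fell 2.23-fold and 2.17-fold (adjusted p = 0.00527 and 0.0179), and 7 of 10 red cell markers had every day 4 array below every day 1 array (17.1% of all genes did), with a summed signal of 17210 to 19900 on day 1 and 12560 to 14480 on day 4. Klf9, Dio1 and Alas2 were not called without day 4 replicate 1 (adjusted p = 0.117, 0.0692 and 0.0625).

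Markers of neighbouring tissue also moved in places. Pnlip, the pancreatic lipase, fell 1.98-fold (adjusted p = 0.0222), the 1 called of 9 pancreas markers, whose summed signal was 1083 to 2150 on day 1 and 1017 to 1597 on day 4. Ttr was the 1 called of 15 liver secreted protein genes, and Myh1, a myosin of fast skeletal muscle, fell 3.60-fold, from 252, 336 and 216 to 22.9, 80 and 150 (adjusted p = 0.0249). None of Pnlip, Ttr, Myh1 and Klrb1a was called without day 4 replicate 1 (adjusted p = 0.101, 0.0774, 0.210 and 0.173; the Myh1 change was then -1.20 against -1.85), and the part of such tissue in the other results was not tested.

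**Figure D4:**
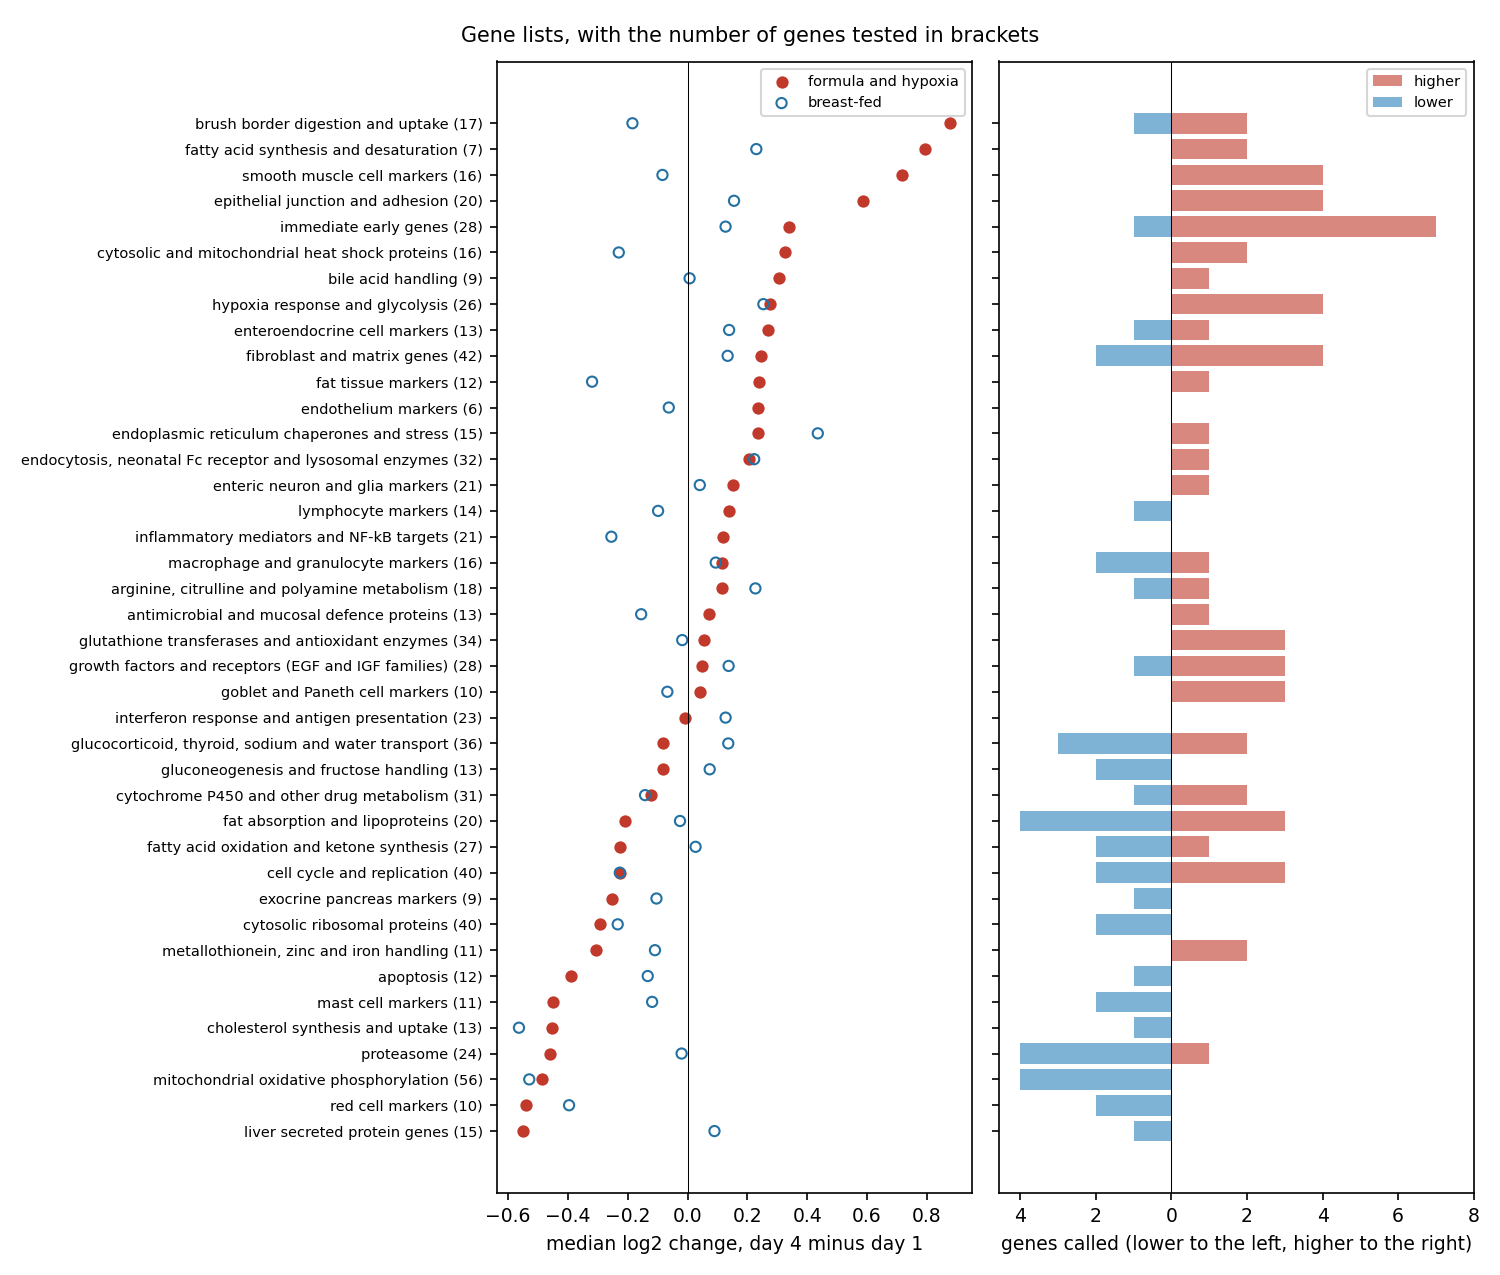
Median log2 change from day 1 to day 4 of each gene list (left; filled points formula and hypoxia, open circles breast-fed pups) and the number of its genes called under formula and hypoxia (right; lower to the left, higher to the right), with genes tested in brackets. Brush border, fatty acid synthesis, smooth muscle and junction lists have the highest medians (0.88, 0.79, 0.72 and 0.59), and liver, red cell, oxidative phosphorylation and proteasome lists the lowest (-0.55, -0.54, -0.49 and -0.46).

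Most of the change also ran the same way in breast-fed pups. Their arrays enter the formula and hypoxia values above through normalisation, the filter, the choice of probe set and the shared estimate of spread. Of the 211 genes higher under formula and hypoxia, 191 (90.5%) were higher on day 4 than on day 1 in breast-fed pups, beside 51.6% of all genes, with a median change of 0.60 against 1.26 under formula and hypoxia. Of the 216 lower genes, 189 (87.5%) were lower in breast-fed pups, beside 48.4% of all, with a median of -0.43 against -1.16. Across all genes the 2 changes correlated at r = 0.524 (rank correlation 0.542), as a description. In breast-fed pups 10 genes (0.314%) were called, all higher and 6 of them among the 427. The number called in breast-fed pups was 112 with array weights and 33 without breast-fed day 4 replicate 3. The other alternatives that ran this contrast gave 0 to 19, apart from the deposited scaling, which gave 149. Under that scaling the breast-fed arrays were not all on the same level. Breast-fed day 1 replicate 2 had a trimmed mean of 108.9 and breast-fed day 4 replicate 1 of 208.8, against 150 on the formula and hypoxia arrays. A difference in the number of calls does not show a difference in response. Since the 427 were chosen for a large change here, their smaller medians in breast-fed pups show no difference either. Breast-fed day 4 replicate 2 had lost 48 abundant probe sets (over 16-fold below the median of the other arrays), against 0 to 2 on each of the 6 formula and hypoxia arrays.

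The test of the difference itself called 5 genes (0.157%), 4 lower (0.126%) and 1 higher (0.0314%), and 225 had an unadjusted p under 0.05. Fbp1, which was at 122, 131 and 135 in breast-fed pups on day 1 and 840, 505 and 594 on day 4, rose there while it fell under formula and hypoxia, a difference of -3.48 (95% interval -4.69 to -2.27, adjusted p = 0.0116). Itih3, a serum hyaluronan-binding protein chain, rose in breast-fed pups from 28.1, 52.7 and 30.8 to 343, 217 and 105, and under formula and hypoxia was at 39.9, 49.6 and 34.8, then 38, 48.5 and 23.3 (difference -2.42, adjusted p = 0.0303). Cd1d1, which presents lipid antigens to natural killer T cells, fell from 416, 363 and 282 to 140, 104 and 154 and in breast-fed pups was at 193, 208 and 208, then 239, 356 and 277 (difference -1.85, adjusted p = 0.0141). Bex3, a small adaptor of neurotrophin receptor signalling, fell from 1260, 993 and 1100 to 346, 386 and 305, the smallest adjusted p of the comparison (3.18-fold, adjusted p = 3.98e-05). In breast-fed pups Bex3 was at 764, 881 and 1050, then 780, 831 and 716 (difference -1.47, adjusted p = 0.0259). For Me1, the difference was upward: in breast-fed pups it was at 173, 119 and 66.1, then 62.3, 62.1 and 87.9 (difference 2.69, adjusted p = 0.0283).

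All 3 breast-fed day 4 arrays, but 1 of the 3 under formula and hypoxia, came from the later accession run, and with that run as a term Bex3, Cd1d1, Fbp1 and Me1 were called. Fbp1 stayed called in most alternatives, but no gene was called with only the 4 groups compared in the model, or without breast-fed day 1 replicate 1. Without breast-fed day 4 replicate 2, or without it and breast-fed day 3 replicate 3, which had lost 69, Fbp1 was the 1 gene called. For some of the largest rises the difference did not pass: Ly6al changed by 0.20 in breast-fed pups (adjusted p of the difference 0.396) and Cyp3a9 by -0.79 (0.122). For Gstp1 the breast-fed change was 0.49 and the difference did not pass (adjusted p = 0.767).

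**Figure D5:**
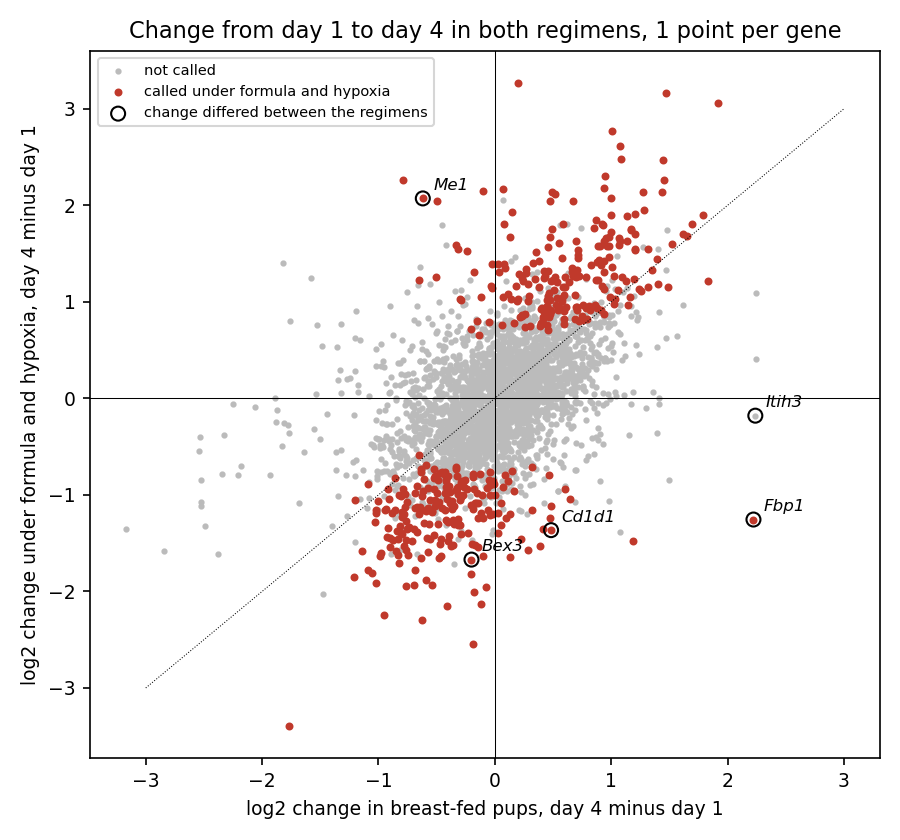
Log2 change from day 1 to day 4 in breast-fed pups (horizontal) and under formula and hypoxia (vertical), 1 point per gene tested, with genes called under formula and hypoxia in red and the 5 genes whose change differed between regimens circled; the dotted line marks equal change. Most red points lie in the quadrants of the same sign (r = 0.524 over all genes), and Fbp1 and Itih3 lie far to the right.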

How the data were processed

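The authors deposited 1 table of linear intensities for 28 arrays. From the values, the 6 arrays compared have a trimmed mean of 150. Breast-fed day 1 replicate 2 has 108.9 and breast-fed day 4 replicate 1 has 208.8. The sources used here name no software, background correction or summary method. Of 8799 probe sets, 59 controls were left out. The platform annotation gave 1 symbol for 7006 of the others, several for 308 and none for 1426, and 6985 matched RefSeq genes by identifier.

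Intensities were quantile normalised, a pseudocount of 8 was added and log2 taken. Probe sets above the 40th percentile of mean log2 signal (a signal of 24) were kept, 5244 in all, and the brightest per gene was used (3185 of 4736 genes with a symbol). limma 3.58.1 in R 4.3.3 fitted 9 group means to all 28 arrays (19 residual degrees of freedom), with variance moderation by signal level and p-values adjusted over all genes (Benjamini-Hochberg). Tests were two-sided, at adjusted p under 0.05, and intervals are 95% intervals. Folds are ratios of signal + 8 and understate the change of dim genes. The scripts were tested on simulated data. With 3 arrays a group, the number of arrays limits the precision.

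The contrasts were day 4 minus day 1 under formula and hypoxia, the same in breast-fed pups, and their difference. Groups and replicate numbers came from the titles. Alternatives covered scaling, pseudocounts of 2 and 32, no filter or the 60th percentile, 1 test per probe set, only the groups compared, accession run as a term and run 1 alone, the replicate number as a block, array weights, no trend, and each array left out.

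Genes named are the 15 largest rises and falls among calls, up to 5 called members with the smallest p per list, the member with the smallest p of a list without calls, a fixed set of genes known in this disease or marking the ileum, and the genes whose change differed between regimens. The samples, genes and lists were chosen with earlier results of these data known.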

Additional observations from a re-analysis of the deposited data

Results flagged for a closer look

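The change from day 1 to day 4 differed between formula with hypoxia and breast feeding for 5 genes, by limma's test of the difference. On the log2 scale, as the change under formula and hypoxia minus that in breast-fed pups, the difference was -3.48 for Fbp1, -2.42 for Itih3, -1.85 for Cd1d1, -1.47 for Bex3 and 2.69 for Me1. Fbp1, a gene of glucose synthesis, rose in breast-fed pups and fell under formula and hypoxia. Itih3 rose in breast-fed pups and was not called here. Cd1d1 and Bex3 fell and Me1 rose under formula and hypoxia, and none of these 3 was called in breast-fed pups. The cause was not tested.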

How the results depend on the processing

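All 427 called genes kept their direction in each alternative that tested them. Of 116 named genes called, 25 were called in every alternative that tested them and 67 were not called without day 4 replicate 1. Among named genes not called, Hmox1, Il1b, Lct and Stat2 were each called in 2 alternatives and Fabp2 and Pck1 in 1. The number called with each of the 6 arrays left out ran from 150 to 361 (higher 85 to 178, lower 65 to 183), that of list members from 36 to 87 beside 99, and the share of calls moving alike from day 2 to day 3 from 92.4% to 95.6% beside 93.2%. Without both day 4 replicate 1 and day 1 replicate 2, an alternative chosen after seeing the data, 80 were called, 48 higher and 32 lower, 22 in the lists, 97.5% moving alike. Array weights called 720, 347 higher and 373 lower, 187 in the lists. The deposited scaling called 126 lower genes and a common median 123 higher ones. The cause was not tested.

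For the difference between regimens, 5 genes became 9 under the deposited scaling, 3 at a common median, 0 with only the groups compared, 1 without the 2 breast-fed arrays that lost probe sets, 20 with array weights, and 0 to 8 with single arrays left out. With only the groups compared the model had fewer arrays. The deposited scaling left breast-fed day 1 replicate 2 at a trimmed mean of 108.9 and breast-fed day 4 replicate 1 at 208.8, against 150 on the formula and hypoxia arrays.

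The replicate number as a block called 405 genes. Same-numbered day 1 and day 4 arrays deviated from their group means with correlations of -0.0837, -0.0125 and 0.0345, so the numbers do not pair the pups. Accession run as a term called 344, and run 1 alone 407. With the run as a term 22 named genes were not called, at adjusted p from 0.0514 to 0.0902: Acta2, Aif1, Alox5ap, Aqp5, Aurkb, Calr, Cma1, Eci1, Erbb2, Gpx3, Idi1, Lum, Mcm6, Mep1b, Ndufb2, Npy, Prim1, Psmb2, Psmd1, Slc3a1, Ttr and Ucp2.

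Signs turned for uncalled genes only. Apoa4 was at -0.23 (deposited scaling), -0.45 (common median), -0.16 (run 1 alone) and -0.14 (without both arrays), and ran from -0.49 to 0.42 with single arrays left out. Fabp2 was at -0.18 and -0.39 under the deposited scaling and the common median. Itih3 was at 0.056 in run 1 alone and ran from -0.37 to 0.056. Cps1 was at 0.16 with array weights and 0.12 without both, and ran from -0.42 to 0.062. Tff3 ran from -0.21 to 0.056, and Mcpt4 from -0.81 to 0.13 with single arrays left out and was at 0.28 without both. Without both, Il18 was at 0.17 and Ptafr at -0.016, against -0.86 to -0.049 and 0.015 to 0.23 with single arrays left out.

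Dim genes are limited by the pseudocount: with 2 and 32 the Gclc change was 2.73 and 1.28, Tln1 2.92 and 1.62, and Nudt1 -2.39 and -1.28.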

Other observations

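Of the probe sets with no single gene symbol, 914 passed the filter, and 64 of them were called in the fit with 1 test per probe set, 31 higher and 33 lower on day 4. Of the 427 called genes, 138 had another probe set that passed the filter, 174 sets in all. Of these, 154 changed in the same direction as the one used, 53 of them passing the test.

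Endocrine and neural genes showed single changes. Cpe, a protease that processes peptide hormones, was at 102, 166 and 129 on day 1 and 360, 297 and 199 on day 4 (2.07-fold higher, adjusted p = 0.0173), and Npy, a peptide of enteric neurons, at 113, 189 and 96.2, then 62.5, 94.6 and 59.9 (1.72-fold lower, adjusted p = 0.0497). Ddc, which makes serotonin and dopamine in enteroendocrine cells and neurons, rose 4.23-fold, from 29.5, 28.3 and 11.8 to 81.9, 125 and 162 (adjusted p = 0.0253). On day 2 Ddc was at 7.6 to 8.4, below every day 1 array, and on day 3 at 62.4 to 229. Stx1a, a synaptic fusion protein, rose 1.76-fold (adjusted p = 0.0108), although a second probe set below the filter changed by -1.03. Lipa, the lysosomal acid lipase, rose 2.48-fold, from 494, 924 and 865 to 2260, 1500 and 1810 (adjusted p = 0.0147), the 1 called of 32 genes of endocytosis and lysosomes, while its other probe sets changed by -0.08 and 0.75. Fcgrt, the neonatal Fc receptor, was at 976, 1150 and 901, then 612, 881 and 816 (change -0.40, adjusted p = 0.501). Without day 4 replicate 1, Cpe, Npy, Ddc, Stx1a and Lipa were not called (adjusted p = 0.117, 0.183, 0.0530, 0.0713 and 0.0890).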
